A study of Mus musculus with 43 samples.

Results

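The collagen genes were taken as every protein-coding row of the count table whose symbol has the form Col, number, a, number, such as Col1a1 or Col6a3. That rule, which uses names and no measured value, gave 44 genes of the 56748 in the files: 11 fibrillar, 9 basement membrane, 6 beaded filament and 18 minor collagens. Of these, 39 passed the filter on low counts and were tested among 20218 genes. RNA was sequenced from epididymal white adipose tissue, the fat pad beside the male mouse's epididymis, in 43 libraries of 5 groups. The SD group (7 libraries) was fed a standard diet with 10% of fat, 20% of protein and 70% of carbohydrate. The HFD group (10 libraries) was fed a high-fat diet with 60% of fat, 20% of protein and 20% of carbohydrate. The other groups had the high-fat diet with SZ-A, the alkaloids of Ramulus Mori (Sangzhi, the mulberry twig), at 200, 400 or 600 mg/kg/day in 9, 8 and 9 libraries. These groups therefore share the high-fat diet with their controls, and all 3 are compared with the same HFD libraries. The labels call the libraries replicate biosamples and name no animal, so the p-values below reflect the spread among the libraries of a group, which may be technical. Strain, age and length of feeding are not stated in the labels.

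Most collagens are secreted proteins of 3 chains wound into a helix. Type I, III and V chains build the fibrils of connective tissue, type IV chains build the sheet-like network of basement membranes, and type VI chains build beaded filaments. In fat, each adipocyte is surrounded by a basement membrane, and collagen VI and the fibrillar collagens lie in the stroma around it. Fibroblasts are a main source of fibrillar collagen, and fibrosis of the fat pad is a known feature of obesity in mice.

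The libraries held 32716294 to 44259619 counts, with a median of 37552576. The libraries form 2 sets by the share of counts on small nuclear, nucleolar and micro RNA genes, 0.00231% to 0.00544% in 22 libraries (set 1) and 0.00744% to 0.0191% in 21 (set 2). The labels give no batch. Set 1 holds SD libraries 1 and 2 and libraries 1 to 5 of every other group, and set 2 holds the later numbers. Both sets hold libraries of every group, but not in equal parts: SD has 2 in set 1 and 5 in set 2, and HFD 5 and 5. Adipocyte markers were abundant, and the summed level of 6 of them (Adipoq and Plin1 among them) was 9100 to 45485 normalised CPM (counts scaled by depth) in 39 libraries. The other 4 libraries held high levels of markers of other tissue. In SD library 4 and SZ-A 600 library 6 the sum of ciliated epithelium markers was 430.1 and 699 CPM, against 1.39 to 30.5 in the 39. In SZ-A 400 library 6 the markers of epididymal duct and vas deferens summed to 22301 CPM, against 0 to 34, and those of smooth muscle to 16401 CPM, against 425 to 1515. In SZ-A 400 library 3 squamous epithelium markers summed to 10315 CPM, against 2.71 to 25.6. The upper ends of 30.5, 34 and 25.6 CPM are all those of SD library 1, which was kept among the 39. It is 1 of the 2 SD libraries of set 1, so it bears on every diet result of that set. Results that rest on the 4 libraries are given with and without them.

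The promoter windows of 4 collagens that the results turn on are shown for the short motifs near their starts. They are the 250 bases before the RefSeq start on GRCm38.p6, on the gene's own strand: Col1a2 at chr6:4505368-4505617 (plus), Col3a1 at chr1:45311288-45311537 (plus), Col6a1 at chr10:76726045-76726294 (minus) and Col6a3 at chr1:90843972-90844221 (minus). Capitals mark matches, on either strand, to the CCAAT box (CCAAT), the GC box (GGGCGG), the TATA box (TATAAA) and the AP-1 motif (TGANTCA). No motif search here allows a mismatch.
Col1a2: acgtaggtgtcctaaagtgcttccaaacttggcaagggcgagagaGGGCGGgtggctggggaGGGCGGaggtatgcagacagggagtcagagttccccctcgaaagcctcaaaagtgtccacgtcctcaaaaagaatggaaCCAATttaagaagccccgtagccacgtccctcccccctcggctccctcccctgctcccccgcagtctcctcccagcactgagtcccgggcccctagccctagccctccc
Col3a1: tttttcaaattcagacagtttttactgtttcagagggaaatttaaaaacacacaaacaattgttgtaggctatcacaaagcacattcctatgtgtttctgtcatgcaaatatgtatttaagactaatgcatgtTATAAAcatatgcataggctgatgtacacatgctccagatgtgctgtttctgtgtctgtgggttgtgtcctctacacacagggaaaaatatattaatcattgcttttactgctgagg
Col6a1: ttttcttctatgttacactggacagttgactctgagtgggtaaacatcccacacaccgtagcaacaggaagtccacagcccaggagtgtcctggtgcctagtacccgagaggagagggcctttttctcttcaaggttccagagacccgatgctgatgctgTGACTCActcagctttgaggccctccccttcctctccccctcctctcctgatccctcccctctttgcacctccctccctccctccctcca
Col6a3: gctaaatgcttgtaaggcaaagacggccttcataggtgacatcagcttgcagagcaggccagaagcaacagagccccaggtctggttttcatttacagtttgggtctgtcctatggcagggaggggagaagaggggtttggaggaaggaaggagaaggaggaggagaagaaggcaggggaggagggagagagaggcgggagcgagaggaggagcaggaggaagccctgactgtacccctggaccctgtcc
The Col1a2 window holds 2 GC boxes, 205 and 188 bases before the start, and a CCAAT box at 109 bases. The Col3a1 window holds TATAAA at 117 bases, the Col6a1 window an AP-1 match at 90 bases, and the Col6a3 window none of the 4 motifs. RefSeq windows were found for 35 of the 44 genes, 38 windows in all. GGGCGG was in 22 of the 38 and in 32.7% of all 32851 windows. CCAAT was in 13 of the 38 (33.8% of all), TATAAA in 5 (12.4%) and TGANTCA in 1 (6.75%). Such matches describe letters and are not sites of binding.

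The order of the collagen messages per length differed between groups. Averaged over the 43 libraries in the authors' FPKM (fragments scaled by gene length and depth), Col4a1 stood at 159 and Col4a2, the partner chain of the common network, at 128. Col3a1 followed at 119.6, Col6a1 at 112 and Col1a1 at 92.6. Col6a2 (59.5), Col1a2 (52.8), Col15a1 (51.6), Col5a3 (48.6), Col18a1 (37.5), Col5a1 (24.6), Col6a3 (18.7) and Col5a2 (16.9) came next, and the other 31 genes each averaged under 8 FPKM, the 4 other type IV chains under 3. In HFD libraries Col3a1 had the highest median, 283 FPKM, next to 225 for Col4a1 and 186 for Col4a2, while in SD libraries the medians were 37.7, 139.8 and 99.1.
The summed FPKM of all collagens was lowest in the SD group, at 508 to 1090 with a median of 545. It ran from 568 to 2357 in the HFD group, with a median of 1650. With SZ-A the medians were 995, 849 and 693 at 200, 400 and 600 mg/kg/day. As a share of all FPKM, the medians were 0.191% in SD, 0.528% in HFD and 0.351%, 0.241% and 0.213% at the rising doses.
The make-up of the collagen message differed too. Fibrillar genes gave a median of 26.5% of the summed collagen FPKM in SD libraries and 44.5% in HFD libraries, while basement membrane genes gave 55.8% and 31.7%. Beaded collagens gave 15.9% and 22%, and the minor collagens 2.24% and 2.11%. At 600 mg/kg/day the fibrillar share was 30.2%, the basement membrane share 45.2% and the beaded share 21%. These shares and sums are descriptions of the libraries and were not tested.

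On the high-fat diet the chains of collagens I, III and V rose, with Col6a1, Col6a2 and Col6a3 of collagen VI, the type IV chains Col4a1 and Col4a2, both multiplexins and 4 minor collagens. Of the 39 tested, 17 were higher in HFD than in SD libraries and 3 were lower in edgeR's quasi-likelihood test with Benjamini-Hochberg adjustment over all genes tested, at an adjusted p under 0.05. Over all genes, 18.4% were higher and 13.3% lower. With upper-quartile in place of TMM scaling, all genes gave 2959 higher and 3501 lower in place of 3725 and 2689, their median moved to -0.17, and the collagens again gave 17 and 3. The median log2 fold change was 0.53 over the 39 collagens and -0.05 over all genes. By class, 6 of 10 fibrillar, 4 of 9 basement membrane, 3 of 6 beaded and 4 of 14 minor collagens were higher. Lower were 2 basement membrane genes and 1 minor gene. In whole tissue, fewer cells of a type and less RNA per cell cannot be told apart.

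Among the fibrillar genes, Col3a1 (ENSMUSG00000026043), the single chain of type III collagen of reticular fibres, moved most. Its level was 239 to 1565 CPM in SD libraries, with a median of 362, and 227 to 4002 CPM in HFD libraries, with a median of 2826. The HFD libraries lay above all SD libraries in 7 of 10 cases, and HFD library 8 lay below them all. The rise was 4.73-fold (log2 2.24 ± 0.57 SE, edgeR adjusted p = 0.00301).
Col1a1 (ENSMUSG00000001506), the major chain of type I collagen, was at 123 to 1307 CPM in SD libraries (median 163) and 145 to 2240 CPM in HFD libraries (median 1250). The highest SD value is that of SD library 4, which only 5 of 10 HFD libraries exceeded, and the lowest HFD value is that of HFD library 8. The rise was 3.1-fold (log2 1.63 ± 0.5, edgeR adjusted p = 0.0121). Without SD library 4 it was 2.4 on the log2 scale (edgeR adjusted p = 0.00046).
Col1a2, the other type I chain, was at 236 to 1207 CPM (median 319.9) and 239 to 1929 CPM (median 1315), and rose 2.56-fold (log2 1.36 ± 0.38, adjusted p = 0.00622). The highest SD library was again SD library 4, and 6 of 10 HFD libraries lay above it. The 3 chains of type V collagen, which takes part in starting fibrils, rose by less than Col3a1. Col5a2 rose 2.72-fold (log2 1.45 ± 0.34, adjusted p = 0.00161), Col5a1 2.01-fold (1 ± 0.26, 0.00415) and Col5a3 1.81-fold (0.85 ± 0.26, 0.0111). Col5a3 was at 186 to 411 CPM in SD libraries (median 219) and 315 to 617 in HFD libraries (median 495), and 7 of 10 HFD libraries lay above the SD range. The 4 other fibrillar genes tested were low, at mean FPKM values under 1. Their log2 differences were 0.41 for Col27a1, -0.25 for Col11a2, -0.74 for Col11a1 and -1.47 for Col24a1, none past the threshold.

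**Figure D1:**
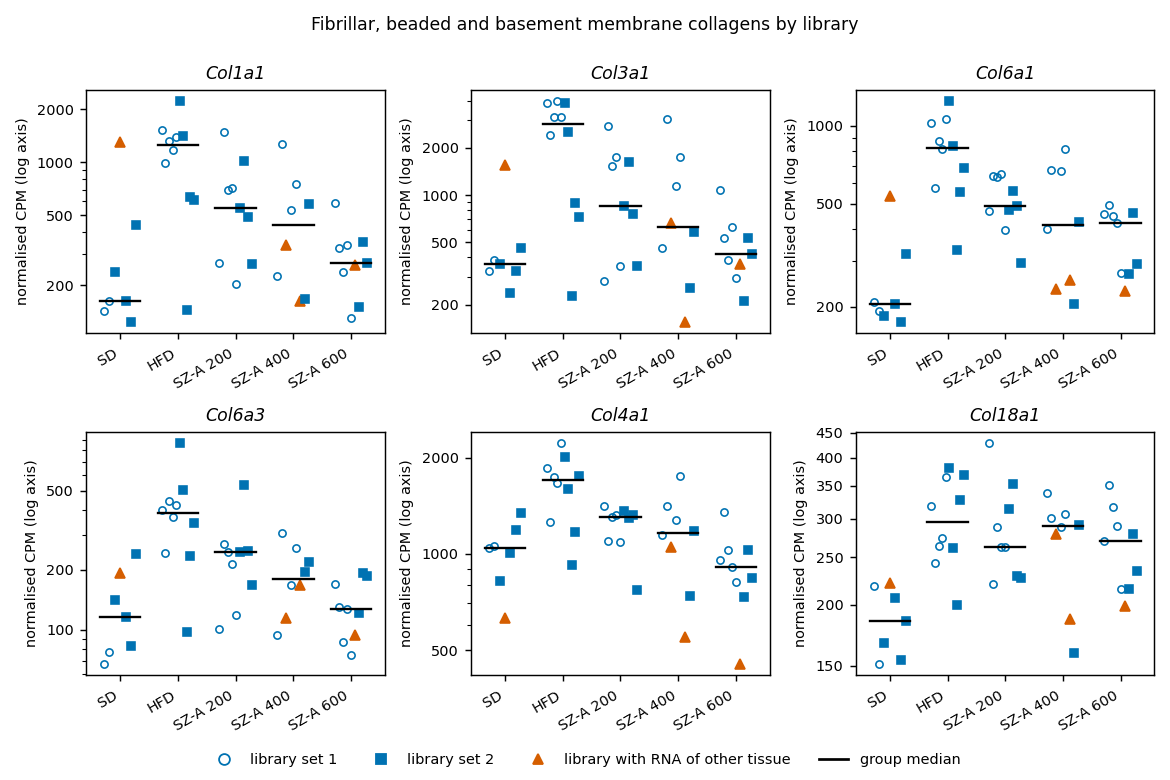
Normalised CPM (log axis) of 6 collagens in every library of the 5 groups; circles and squares are library sets 1 and 2, triangles the 4 libraries with high markers of other tissue, and bars the group medians. Col1a1 medians run 163, 1250, 549.8, 439 and 266 from SD to SZ-A 600, and Col18a1 medians 185, 296, 263, 289.7 and 269.5.

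The 3 major chains of the beaded filaments rose by about as much as each other. Col6a1 (ENSMUSG00000001119) was at 174 to 533 CPM in SD libraries (median 205) and 332 to 1248 in HFD libraries (median 823). Col6a2 was at 166 to 477 CPM (median 203) and 325 to 1309 CPM (median 869). In both genes 9 of 10 HFD libraries lay above every SD library.
Col6a1 rose 3.07-fold (log2 1.62 ± 0.28, edgeR adjusted p = 0.000187) and Col6a2 rose 3.42-fold (1.78 ± 0.31, adjusted p = 0.000183). Col6a3 (ENSMUSG00000048126), the long chain whose carboxy-terminal fragment is endotrophin, a signal studied in adipose tissue, rose 3-fold (1.58 ± 0.33, adjusted p = 0.000645). It was at 66.9 to 240.5 CPM (median 116) in SD and 97.6 to 871 CPM (median 385) in HFD libraries, with 8 of 10 HFD libraries above the SD range. Col6a5 and Col6a6, chains related to Col6a3, had log2 differences of 0.97 ± 0.58 and 0.33 ± 0.32 and were not called (edgeR adjusted p = 0.199 and 0.439).

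In the basement membrane class the 4 abundant genes rose, and 2 of the 4 rare type IV chains, Col4a3 and Col4a4, were called lower, calls that were both lost when SD library 4 alone was left out. Col4a1 (ENSMUSG00000031502) was at 631 to 1347 CPM in SD libraries (median 1043) and 923 to 2229 in HFD libraries (median 1705). It rose 1.6-fold (log2 0.67 ± 0.2, edgeR adjusted p = 0.00967), and 7 of 10 HFD libraries lay above the SD range. Col4a2 rose 1.84-fold (0.88 ± 0.21, adjusted p = 0.00203).
Col15a1 and Col18a1, the multiplexins that carry glycosaminoglycan chains in basement membrane zones, rose 2.3-fold (1.2 ± 0.3, adjusted p = 0.00286) and 1.61-fold (0.69 ± 0.16, adjusted p = 0.00129). Col18a1, the source of the fragment endostatin, was at 151 to 222 CPM in SD libraries (median 185) and 199.7 to 381 in HFD libraries (median 296), and 9 of 10 HFD libraries lay above the SD range. Col15a1 was at 125 to 323 CPM (median 171) and 194 to 710.3 CPM (median 478), with 8 of 10 above.
Col4a4 and Col4a3, chains of the type IV network of kidney and lung basement membranes, were 6.92-fold (log2 -2.79 ± 0.7, adjusted p = 0.00277) and 5.91-fold (-2.56 ± 0.81, adjusted p = 0.0145) lower in HFD. SD library 4 decided the size of both: it held 81.6 CPM of Col4a4, against 4.77 to 6.66 in the other SD libraries and 1 to 4.15 in the HFD libraries. All 10 HFD libraries lay below the lowest SD library. With all 4 of the libraries with other tissue markers left out, Col4a4 was lower by -1.24 on the log2 scale (edgeR adjusted p = 0.00328) and Col4a3 was not called (-0.79, adjusted p = 0.142). Leaving out SD library 4 alone gave -1.26 (adjusted p = 0.123) and -0.8 (adjusted p = 0.435). Col4a5, Col4a6 and Col7a1, the anchoring fibril collagen of skin, were not called, at log2 differences of -0.07, -1.19 and -0.41.

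Of the minor collagens, 3 that sit on fibril surfaces and the short chain Col8a1 rose. Col16a1 rose 3.13-fold (log2 1.65 ± 0.35, edgeR adjusted p = 0.000677), from 7.89 to 72.2 CPM (median 11.8) in SD libraries to 31 to 96.6 CPM (median 65.9) in HFD libraries. SD library 4 holds the highest SD value, and 4 of 10 HFD libraries exceeded it. Without it the log2 rise was 2.35 (adjusted p = 5.63e-06).
Col12a1 rose 2.47-fold (1.3 ± 0.34, adjusted p = 0.00379), from 4.01 to 20.3 CPM (median 11.6) to 6.9 to 52.3 CPM (median 24.2). Col14a1 rose 2.33-fold (1.22 ± 0.43, adjusted p = 0.0277), from 11.8 to 121 CPM (median 22.3) to 24 to 133 CPM (median 94). The Col14a1 groups overlap, with 2 of 10 HFD libraries above SD library 4. Its adjusted p passed 0.05 when SD library 3, 5, 6 or 7 or HFD library 1 was left out (1.08 to 1.14 on the log2 scale, adjusted p = 0.0504 to 0.0666), was 0.05 without HFD library 6, and was 0.000664 without SD library 4 (log2 1.91).
Col8a1, a short chain of vessel walls and of the cornea, rose 2.33-fold (1.22 ± 0.38, adjusted p = 0.0123), from 9.83 to 16 CPM (median 14.3) to 7.05 to 48.7 CPM (median 35.6). Col13a1, a transmembrane collagen, was lower (-2.65 ± 0.9, adjusted p = 0.0226) at median levels of 0.93 and 0.108 CPM. It was not called without SD library 4, at 4.37 CPM its highest library (-1.84, adjusted p = 0.12). The 9 other minor collagens tested, all under 3 FPKM on average, were not called.

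Of the collagens tested, 18 were higher and 1 lower without the 4 libraries with markers of other tissue, against 4151 and 3110 of 20054 genes in all. Within library set 1, with 2 SD and 5 HFD libraries, 17 were higher and 2 lower, against 3531 and 3794 of 20151 genes in all. Within set 2, with 5 and 5, none of 42 was called by edgeR, and few genes were called in all, 202 higher and 146 lower of 21829. An unadjusted p under 0.05 was found for 12 of the 42 collagens and for 4735 of the 21829 genes. Without the 4 libraries set 2 gave 7 collagens higher, against 1323 of 21688 genes in all. Col1a1 differed by 3.01 on the log2 scale in set 1 (edgeR adjusted p = 0.00651) and by 1.12 in set 2 (adjusted p = 0.35). The values were 2.06 and 1.34 for Col6a1 (adjusted p = 0.00123 and 0.0615), 2.32 and 1.39 for Col6a3 and 0.67 and 0.56 for Col4a1. A test of whether the diet effect differs between the sets called none of 39 collagens by edgeR or limma, with 2 at an unadjusted p under 0.05 in edgeR, and none of the 38 that DESeq2 tested. Of all 20218 genes edgeR called 0%, with 1829 at an unadjusted p under 0.05. DESeq2 called 11 genes, and limma called 5 or 1 by the pseudocount. The edgeR estimate, set 2 minus set 1, was negative for 34 of 39 collagens, with a median log2 of -0.75 (-0.02 over all genes). It was -1.93 ± 1.05 for Col1a1 and -1.75 ± 1.07 for Col3a1. With 2 SD libraries in set 1, the absence of calls cannot show that the diet effect was alike in the sets.
Markers of other cells moved with these genes. Of 8 fibroblast markers 5 rose with the diet, and their summed level was 768 to 2198 CPM in SD (median 1027) and 877 to 3362 in HFD libraries (median 2802). All 7 macrophage markers rose, from 334 to 857 CPM in sum (median 382) to 559 to 9058 (median 5782). These counts stand against 18.4% of all genes higher and 13.3% lower. Endothelial markers were called lower in 2 of 6 cases (sums of 767 to 2035 CPM, median 1454, in SD and 668 to 1733, median 843, in HFD libraries). Schwann cell markers were called lower in 2 of 4 (4.88 to 11.1 and 1.21 to 4.39 CPM), and 1 of 6 mural and smooth muscle markers was higher. No adipocyte marker of 6 was called, with sums of 8118 to 35543 (median 27310) and 9100 to 45485 CPM (median 15599), and no mesothelial marker of 5. HFD library 8, lowest of its group in Col1a1, was also the HFD library with the lowest macrophage sum (559 CPM) and the highest adipocyte sum (45485 CPM). Its fibroblast sum was not the lowest: it was 1456 CPM, above HFD library 9 (1173) and HFD library 10 (877). The part of these cell types in the collagen values was not tested.

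At 200 mg/kg/day of SZ-A no collagen of the 39 was called against HFD by edgeR, DESeq2 or limma, with 9 at an unadjusted p under 0.05 in edgeR. Among all 20218 genes edgeR called 0.00989%, and 1397 had an unadjusted p under 0.05. The estimate was negative for 34 of 39 genes, with a median log2 fold change of -0.44. Col3a1 was at 285 to 2758 CPM (median 853), and its estimate of -1.12 ± 0.5 had an edgeR adjusted p of 0.661.
Col1a1, at 204 to 1479 CPM (median 549.8), had an estimate of -0.86 ± 0.45 (adjusted p = 0.732). The values of both lay inside the HFD range. The log2 estimates were -0.72 for Col6a3, -0.64 for Col6a1, -0.58 for Col14a1, -0.52 for Col8a1, -0.44 for Col5a3, -0.41 for Col4a1, -0.31 for Col15a1, -0.29 for Col12a1 and -0.06 for Col18a1.

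At 400 mg/kg/day no collagen was called lower in the main edgeR fit (0.406% of all genes were). An unadjusted p under 0.05, in either direction, was found for 17 of 39 collagens and for 3674 of all 20218 genes. Other fits called some lower. DESeq2 gave 5 lower and 1 higher, where 201 and 462 of all 20218 genes were. With library set as a term edgeR gave 6 lower and 2 higher (336 and 938 in all). It gave 1 lower and 4 higher with DESeq2 size factors (95 and 496), and 4 lower and 1 higher with a block for replicate number (282 and 331). In the main fit the estimate was negative for 27 of 39, with a median of -0.5. Col6a3 came closest, at 93.9 to 308 CPM (median 180.2), against 97.6 to 871 in HFD. Its log2 difference was -1.05 ± 0.31 (edgeR adjusted p = 0.0549), and it was called on leaving out HFD library 8 (adjusted p = 0.0209) or 9 (0.0453), or SZ-A 400 library 2 (0.0261) or 5 (0.0417).
The estimates were -1.3 ± 0.52 for Col3a1 (adjusted p = 0.162), -1.18 ± 0.47 for Col1a1 (0.161), -1.25 for Col14a1 (0.0879), -0.8 for Col6a1 (0.0817) and -0.75 for Col5a3 (0.0879). They were -0.67 for Col15a1, -0.63 for both Col8a1 and Col12a1, -0.51 for Col4a1 and -0.15 for Col18a1. Without SZ-A 400 library 2, the highest of its group in Col1a1 and Col3a1, 12 collagens were called, 8 lower and 4 higher. Col1a1 (-1.53, edgeR adjusted p = 0.0486) and Col3a1 (-1.79, adjusted p = 0.0363) were among the lower. Calls among all genes in that fit are not given here, so the 12 cannot be set against a share.
Called higher were 4 collagens (2.46% of all genes were): Col26a1 (log2 3.79 ± 0.99, edgeR adjusted p = 0.0276), Col17a1 (2.84 ± 0.59, 0.00547), Col4a6 (2.19 ± 0.63, 0.0438) and Col23a1 (1.98 ± 0.44, 0.00925). Col17a1 is the transmembrane collagen of the hemidesmosomes that anchor epithelium, and Col4a6 a chain of epithelial and smooth muscle basement membranes. Without the 4 libraries with other tissue markers none was called, at log2 estimates of -0.17, 0.29, 0.44 and 0.37 in that order.

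At 600 mg/kg/day the chains of collagens I, III and V, with Col6a1, Col6a2, Col6a3, Col4a1, Col4a2 and 4 minor collagens, fell. edgeR called 15 of 39 lower and 2 higher, against 6.47% lower and 5.12% higher among all genes. The median log2 fold change was -0.7 over the collagens and 0.06 over all genes. All 6 abundant fibrillar chains were called lower, with 3 beaded, 2 basement membrane and 4 minor genes.
Col3a1 was at 211 to 1074 CPM (median 421), against 227 to 4002 (median 2826) in HFD libraries, a 5.03-fold fall (log2 -2.33 ± 0.52, edgeR adjusted p = 0.00752). Col1a1 was at 131 to 584 CPM (median 266), a 3.9-fold fall (-1.96 ± 0.46, adjusted p = 0.00938). In Col1a1 the only HFD library inside the range of the treated ones was HFD library 8, while in Col3a1 HFD libraries 9 and 10 also lay inside it.
Col1a2 fell 2.67-fold (-1.42 ± 0.35, adjusted p = 0.0111), from a median of 1315 CPM to 275 to 704 CPM (median 404). Col5a2 fell 2.71-fold (-1.44 ± 0.31, adjusted p = 0.00645), Col5a1 1.88-fold (-0.91 ± 0.24, 0.0161) and Col5a3 1.62-fold (-0.7 ± 0.24, 0.0479). The Col5a3 call was lost when any of 14 single libraries was left out (adjusted p = 0.0507 to 0.103).

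Col6a3 was at 75 to 193 CPM (median 127) with 600 mg/kg/day, against 97.6 to 871 (median 385) in HFD libraries, a 2.99-fold fall (log2 -1.58 ± 0.31, edgeR adjusted p = 0.00364). Col6a2 fell 2.56-fold (-1.36 ± 0.28, adjusted p = 0.00475) and Col6a1 2.15-fold (-1.11 ± 0.25, adjusted p = 0.00835), to 230.4 to 493 CPM (median 421). Of 9 treated libraries, 4 lay below every HFD library in Col6a1 and in Col6a2, and 3 in Col6a3. The other type VI chains Col6a6 (-0.83, adjusted p = 0.0629), Col6a5 (-1.45, 0.0702) and Col6a4 (-0.62, 0.384) did not pass.
The network chain Col4a2 was at 370.3 to 888 CPM (median 592), and 7 of 9 libraries lay below the lowest HFD library at 679, more than for any other of the 15 genes. It fell 2-fold (-1 ± 0.2, adjusted p = 0.00395). Col4a1, at 451 to 1355 CPM (median 912), fell 1.79-fold (-0.84 ± 0.19, adjusted p = 0.0072), with 5 of 9 below the HFD range. Col15a1 (-0.66 ± 0.27, adjusted p = 0.1) and Col18a1 (-0.19 ± 0.14, adjusted p = 0.399) were not called. Without HFD library 8 Col15a1 was called (-0.73, adjusted p = 0.0484). Col18a1 was at 199 to 352 CPM (median 269.5), inside the range of the HFD libraries but for 1 library.

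Of the minor collagens Col14a1 fell 3.17-fold (log2 -1.67 ± 0.4, edgeR adjusted p = 0.0101), to 9.18 to 58.7 CPM (median 23.7), with 5 of 9 libraries below the HFD range. Col12a1 fell 2.04-fold (-1.03 ± 0.31, adjusted p = 0.0276), to 4.63 to 28.8 CPM (median 11.3). Its call was lost without HFD library 6, SZ-A 600 library 5 or SZ-A 600 library 6 (adjusted p = 0.0541 to 0.0679).
Col8a1 fell 2.03-fold (-1.02 ± 0.34, adjusted p = 0.0455), to 10.7 to 22.8 CPM (median 15.3), and its call was lost when any of 14 single libraries was left out (0.0527 to 0.0939). Col28a1 also fell 2.03-fold (-1.02 ± 0.26, adjusted p = 0.0139), from 2.21 to 15.2 CPM (median 9.28) to 2.62 to 6.67 CPM (median 4.58). Col16a1 was at 44.7 to 91.4 CPM (median 62.8), next to 31 to 96.6 (median 65.9) in HFD libraries, and its estimate was -0.07 ± 0.31 (adjusted p = 0.898). Its groups overlap fully: no treated library lay outside the HFD range.
The 2 genes called higher were Col4a4 (2.39 ± 0.67, adjusted p = 0.0197) and Col4a3 (2.53 ± 0.78, adjusted p = 0.0306). SZ-A 600 library 6 held 88.7 and 41.6 CPM of them, against at most 5.39 and 2.42 in the other 8 libraries. Without the 4 libraries the estimates were 0.23 (adjusted p = 0.666) and 0.03 (adjusted p = 0.969). In that fit 17 collagens were lower and 0 higher, against 1502 and 775 of 20054 genes in all. An unadjusted p below 0.05 was then found for 21 of 39 collagens and for 5665 of the 20054 genes.

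**Figure D2:**
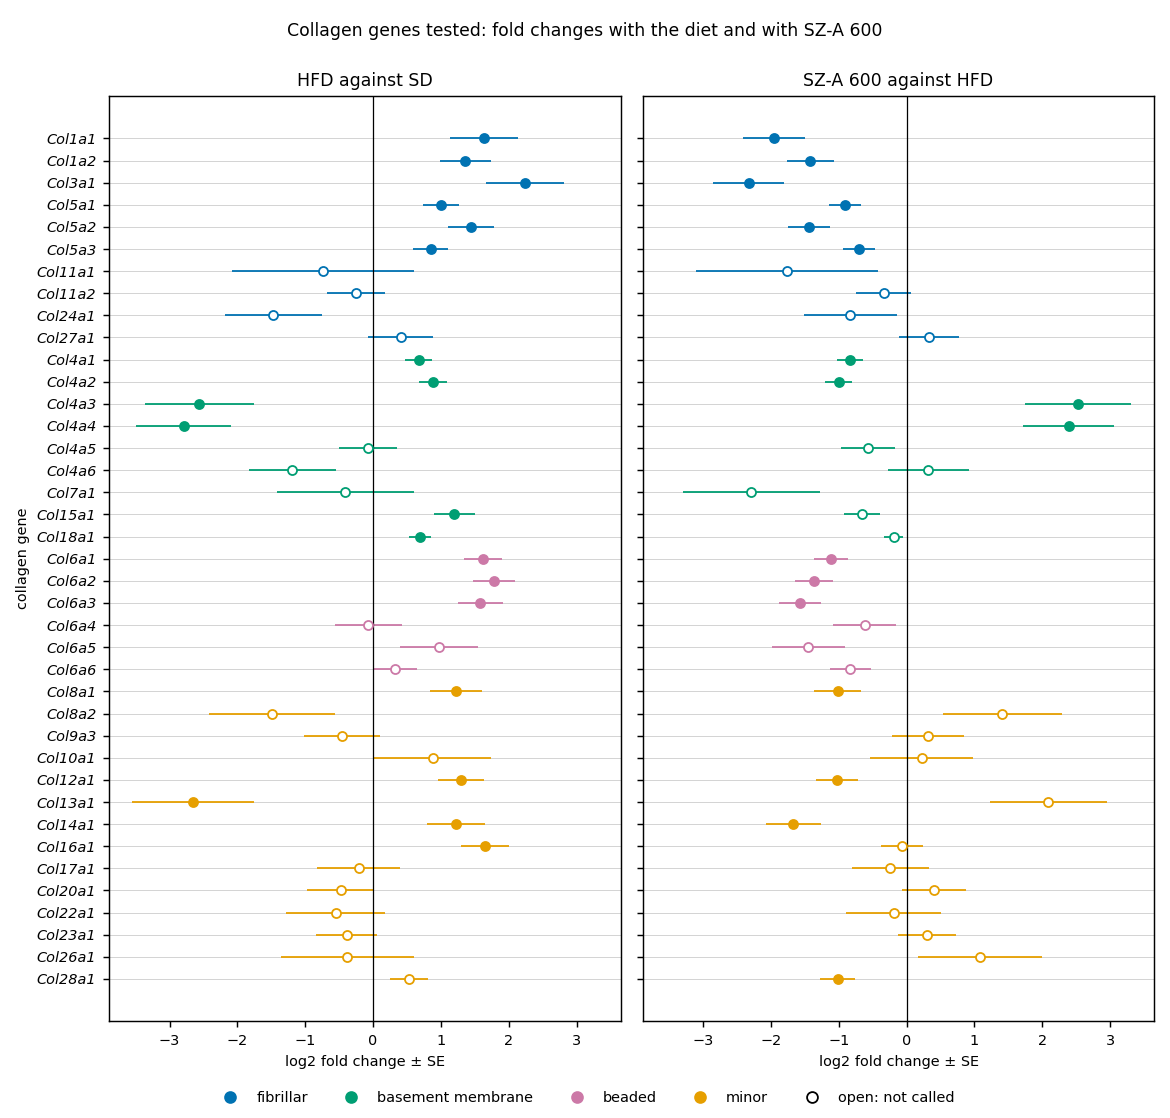
Log2 fold change ± SE (edgeR) of the 39 tested collagens for HFD against SD (left) and SZ-A 600 against HFD (right), coloured by class; filled points passed an adjusted p of 0.05. Both panels use the same 10 HFD libraries, so mirrored positions are not independent; Col16a1 (1.65 and -0.07) and Col18a1 (0.69 and -0.19) are 2 genes called on the left and not on the right.

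Within library set 1, with 5 HFD and 5 treated libraries, 17 collagens were lower and 0 higher at 600 mg/kg/day. Of 20151 genes in all, 2584 were lower and 3385 higher. Within set 2, with 5 and 4, none of 42 was called by edgeR, with 14 at an unadjusted p under 0.05, against 2873 of 21829 genes in all. In that set 4 of all genes were called, against 5969 in set 1. The estimates of the main genes were alike in size: -1.96 in both sets for Col1a1 (edgeR adjusted p = 0.00809 and 0.305), -2.48 and -2.1 for Col3a1, -1.64 and -1.46 for Col6a3, and -0.75 and -0.97 for Col4a1. With library set as a term, 16 collagens were lower and 2 higher, against 2213 and 2116 of 20218 genes in all.
Fibroblast markers were lower in 4 of 8 cases at this dose, with a summed level of 771 to 2504 CPM (median 1452), and macrophage markers in 3 of 7, at 387 to 4787 CPM (median 1725), against 6.47% of all genes. No endothelial, mural, mesothelial or Schwann cell marker was called. No adipocyte marker of 6 was called, at 8853 to 37198 CPM (median 30391). Their part in the collagen values was not tested.
A linear trend over the 4 doses from 0 to 600 mg/kg/day was lower for 15 collagens and higher for 2, against 7.86% and 6.82% of all genes. Over the whole dose span the fitted log2 change was -2.15 for Col3a1 (edgeR adjusted p = 0.00556), -1.86 ± 0.44 for Col1a1 (0.00666), -1.7 for Col14a1 (0.0053), -1.52 ± 0.29 for Col6a3 (0.00234), -1.04 for Col6a1 (0.006) and -0.79 for Col4a1 (0.00526). It was -0.7 for Col15a1 (0.0606) and -0.2 for Col18a1 (0.337). The 2 that rose were Col4a3 (2.59) and Col4a4 (2.34), which were not called without SZ-A 600 library 6 (0.36 and 0.42).

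Pairs of chains that share a trimer did not keep a fixed ratio of FPKM within libraries. Mean log2 ratios of FPKM were compared by an exact two-sided permutation test over libraries, with p adjusted over the 8 comparisons made. Col1a1 over Col1a2 was 0.774 to 2.18 in SD libraries (median 1.2), 1.15 to 2.23 in HFD libraries (median 1.91) and 0.686 to 1.64 at 600 mg/kg/day (median 1.44). It was higher in HFD than in SD by 0.53 on the log2 scale (exact permutation p = 0.022, adjusted 0.0301) and lower at 600 mg/kg/day than in HFD by a log2 difference of -0.57 (exact permutation p = 0.00129, adjusted 0.00494). The groups overlap in both comparisons.
Col6a1 over Col6a2, neighbours on one strand, was 1.63 to 2.13 in SD (median 1.97), 1.61 to 1.95 in HFD (median 1.79) and 1.98 to 2.35 at 600 mg/kg/day (median 2.06). All 9 treated libraries lay above all 10 HFD libraries. That difference was 0.25 on the log2 scale, with an exact permutation p of 2.17e-05, the smallest that 92378 splits allow in a two-sided test (adjusted 0.000173). Between HFD and SD it was -0.13 (exact permutation p = 0.0223, adjusted 0.0301).
Col4a1 over Col4a2 had medians of 1.34, 1.21 and 1.32 in the same order. The log2 differences were -0.19 with the diet (exact permutation p = 0.00185, adjusted 0.00494) and 0.14 at 600 mg/kg/day (p = 0.0225, adjusted 0.0301, exact permutation). Both ranges overlap those of the HFD libraries. Col3a1 over Col1a1, from different collagens, had medians of 1.02, 1.35 and 1.08, and neither difference was called (0.22, exact permutation p = 0.37, and -0.25, p = 0.155).
Within set 1 the Col6a1 over Col6a2 difference at 600 mg/kg/day was 0.3 (exact permutation adjusted p = 0.0212) and within set 2 it was 0.2 (0.0635). Single libraries decided some of these calls. The diet difference of Col1a1 over Col1a2 was not called without SD library 1, 2 or 6 or HFD library 6 (exact permutation adjusted p = 0.0543 to 0.0773). That of Col6a1 over Col6a2 was not called without SD library 1, 2, 3 or 4 or HFD library 2 or 6 (0.0508 to 0.0696). The Col4a1 over Col4a2 difference at 600 mg/kg/day was not called without HFD library 6 or SZ-A 600 library 1, 3 or 5 (0.052 to 0.0642).

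**Figure D3:**
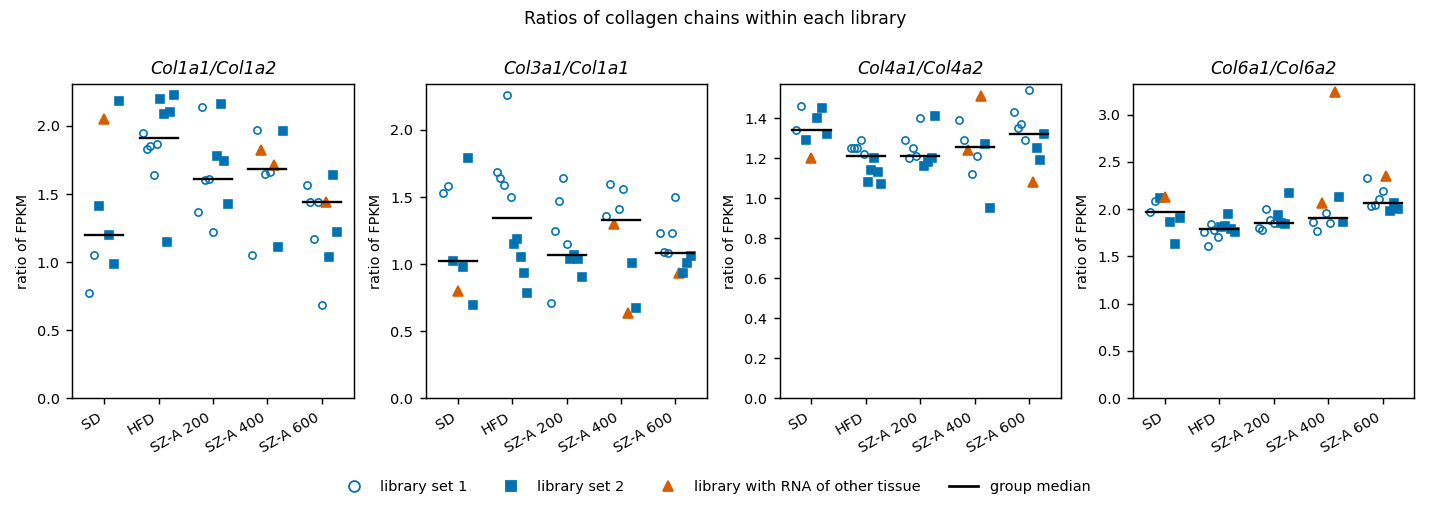
Ratios of the authors' FPKM of 4 chain pairs in every library of the 5 groups (linear axis from 0); symbols are as in the plot of levels and bars are group medians. In Col6a1 over Col6a2 the 9 SZ-A 600 libraries lie between 1.98 and 2.35 and the 10 HFD libraries between 1.61 and 1.95.

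Several of these genes lie side by side in the genome. By the coordinates in the files, Col4a1 (chr8:11248423-11362826, minus strand) and Col4a2 (chr8:11362805-11499287, plus strand) overlap by 22 bases head to head. Col4a4 and Col4a3 start 71 bases apart on chromosome 1, and Col4a6 and Col4a5 lie 1308 bases apart on chromosome X. Col3a1 (chr1:45350698-45388866, plus) and Col5a2 (chr1:45413481-45542442, minus) are 24614 bases apart, and Col6a2 and Col6a1 85161 bases apart on chromosome 10. The labels name mm10 as the build, but only 3 of the 44 genes share a start or end with the GRCm38 annotation, so the build of these coordinates is uncertain. The libraries are strand-specific per the labels, and whether the counting used strand is not given in the sources used here. Reads in the stretch that Col4a1 and Col4a2 share may therefore be assigned to either.

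Rare collagens were high in the libraries with markers of other tissue. Col4a4 was at 81.6 CPM in SD library 4, 88.7 in SZ-A 600 library 6 and 10.4 in SZ-A 400 library 6, against 1 to 6.66 in the other libraries. Col8a2, a partner of Col8a1 known from the cornea, was at 46.6 CPM in the first of these and 53.7 in the second, against at most 6.39 elsewhere. Both also held the ciliated epithelium markers.
SZ-A 400 library 6, with the markers of duct and smooth muscle, held 163 CPM of Col23a1 (at most 18.1 elsewhere), 100 of Col4a6 (25.2 in SD library 4, 11.2 in SZ-A 600 library 6) and 35.8 of Col26a1. Col17a1 was at 14 CPM in SZ-A 400 library 3, the one with squamous epithelium markers, and at 6.33 in SZ-A 400 library 6, against at most 1.1 in the other libraries. Cartilage markers summed to at most 0.435 CPM in any library. The source of these messages was not tested.

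**Figure D4:**
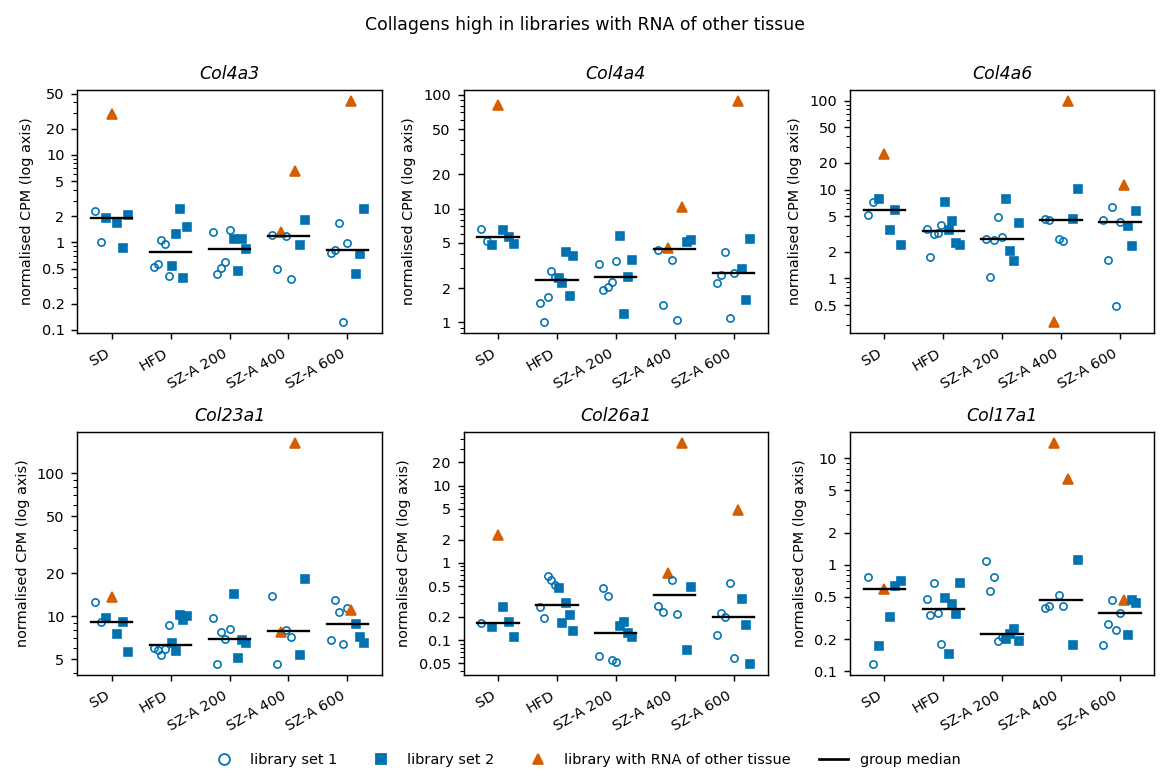
Normalised CPM (log axis) of 6 rare collagens in every library; triangles are the 4 libraries with high markers of other tissue, circles and squares library sets 1 and 2, and bars the group medians. SD library 2, at 0 CPM for Col26a1, is not drawn; Col4a4 stands at 81.6 and 88.7 CPM in 2 of the triangles.

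The 5 collagens that did not pass the filter were Col2a1, Col9a1, Col9a2, Col19a1 and Col25a1, most of them known from cartilage. The highest raw count of any of them was 177, for Col25a1 in SZ-A 600 library 6, and the next for that gene was 118 in SD library 4. Col9a1 had a count of 0 in every HFD and SZ-A 200 library.

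Genes that make, process and bind collagen moved with the diet in part, and their counts stand against 18.4% higher and 13.3% lower among all genes. Among genes of chain modification (hydroxylation and glycosylation), 8 of 14 rose and 0 fell, with a median log2 difference of 0.55. Colgalt1, a collagen galactosyltransferase, rose by 1.43 ± 0.27 (edgeR adjusted p = 0.000314) and P4hb, a subunit of prolyl 4-hydroxylase, by 0.78 (adjusted p = 0.00147). Of 5 genes of folding and export 3 rose.
Serpinh1, the collagen chaperone of the endoplasmic reticulum, was at 167 to 269 CPM in SD libraries (median 208) and 356 to 631 in HFD libraries (median 501). The groups did not overlap, and it rose by 1.24 ± 0.23 (adjusted p = 0.000311). Ppib, a prolyl isomerase, rose by 0.82 (adjusted p = 0.000878).
Of 6 genes of propeptide removal 4 rose. Pcolce, an enhancer of the carboxy-terminal proteinase, rose by 1.71 ± 0.36 (adjusted p = 0.00067), and Adamts2, the amino-terminal proteinase, by 1.14 (adjusted p = 0.00229), with 92 to 127 CPM in SD and 144 to 345 in HFD libraries and no overlap. Of 5 crosslinking oxidases 3 rose, with Loxl1 at 1.75 ± 0.38 (adjusted p = 0.000804) and Loxl3 at 1.09 (0.00184).
Of 9 receptors tested, of 10 listed, 3 rose. They include Lair1, an inhibitory receptor of leukocytes (4.07 ± 0.83, adjusted p = 0.00047), and Mrc2, a receptor for collagen uptake (2.69 ± 0.46, adjusted p = 0.000152). Of 10 other basement membrane genes 1 rose and 2 fell, near those shares. The laminin chain Lama2 rose (1.02, adjusted p = 0.0199) and Lama4, another, fell (-0.65, adjusted p = 0.00636).

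At 200 mg/kg/day none of these genes was called by edgeR. At 400 mg/kg/day 2 genes of chain modification were, P3h4 higher (0.69, edgeR adjusted p = 0.018) and P4ha1 lower (-0.53, adjusted p = 0.0431). So were 2 receptors, the integrin chains Itga2, higher (4.11, adjusted p = 0.00373), and Itga11, lower (-1.16, adjusted p = 0.0249). Without SZ-A 400 library 6, at 134 CPM of Itga2, these were not called (Itga2 -0.06, P3h4 0.51, P4ha1 -0.42, Itga11 -1.02). The P4ha1 call was lost when any of 12 single libraries was left out (adjusted p = 0.0568 to 0.126), and the Itga11 call also without HFD library 6 (0.0589) or SZ-A 400 library 3 (0.0659).
At 600 mg/kg/day 5 of the 14 genes of chain modification fell and 1 rose, where 6.47% of all genes were lower and 5.12% higher. P4ha1, the catalytic prolyl 4-hydroxylase chain, fell by -0.59 ± 0.15 (adjusted p = 0.0119), with 8 of 9 libraries below the HFD range, and P3h4 rose by 0.6 (adjusted p = 0.0186). Both folding genes that fell are collagen chaperones: Serpinh1 (-0.72, adjusted p = 0.0249) and Fkbp10 (-0.62, adjusted p = 0.0307).
Of the propeptide genes 3 of 6 fell. Bmp1, the carboxy-terminal proteinase, was at 92.8 to 158 CPM in HFD libraries (median 127) and 63.1 to 92.8 at 600 mg/kg/day (median 75.8), with 8 of 9 libraries below the HFD range (-0.68, adjusted p = 0.0161). Pcolce fell by -1.07 (adjusted p = 0.0285). The oxidases Loxl2 (-1.27, adjusted p = 0.0161) and Loxl1 (-1.24, adjusted p = 0.0183) were 2 of 3 that fell.
Itga11, a collagen-binding integrin chain of fibroblasts, was the 1 receptor that fell (-1.22 ± 0.29, adjusted p = 0.00946), and the laminin chains Lama2 (-1.16, adjusted p = 0.0169) and Lamc1 (-0.44, adjusted p = 0.0362) the 2 basement membrane genes. Leaving out SZ-A 600 library 6 ended the calls of Serpinh1 (0.0623), Fkbp10 (0.0707), Pcolce (0.0584) and Lamc1 (0.102), and without other single libraries those of Fkbp10, Pcolce and Lamc1 were lost as well.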

How the data were processed

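RNA-seq of epididymal white adipose tissue was analysed in 43 libraries of 5 groups, grouped by the labels. The deposited count table holds the authors' raw read counts per gene, not normalised, and the deposited FPKM table holds the authors' values scaled by gene length and depth. Genome build mm10 is named in the submitters' processing notes; the aligner and counter were not given there or in the labels, so reads shared by similar or overlapping genes may be counted in other ways. RNA was poly(A)-selected in strand-specific libraries per the labels' protocols.

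Counts were analysed with edgeR 4.0.16 in R 4.3.3 (TMM scaling, filterByExpr, robust quasi-likelihood fit), in 1 fit of all groups so that they share an estimate of spread, with Benjamini-Hochberg adjustment over 20218 genes and a threshold of 0.05. A trend over dose was fitted to the HFD and SZ-A libraries. CPM values are TMM-normalised. Standard errors are the log2 fold change over the root of F. Levels between genes and chain ratios use the FPKM values. Alternatives were limma 3.58.1 on log2(FPKM + 1) and log2(FPKM + 0.1), DESeq2 1.42.0, other scalings and filters, the library sets, a replicate block and each library left out. Depth was 32716294 to 44259619 counts, no pair of libraries had identical counts, and for rare genes the counts themselves limit precision.

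Named were 11 fixed collagens in every comparison, every collagen called with at least 1 CPM in its higher group (up to 12 a direction) and the 2 pathway genes of smallest p in each list. Members, lists and marker genes were chosen with earlier results of these data known. Collagens named outside that rule, such as Col6a5, Col8a2, Col16a1 at 600 mg/kg/day and the untested genes, were chosen after their values were seen. Figures were drawn with matplotlib 3.10.9.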

Additional observations from a re-analysis of the deposited data

Results flagged for a closer look

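Within each group, 25 genes and 4 chain ratios were searched for a single library far from the others by Dixon's test, on log2(CPM + 0.5) for genes, 145 groups in all. Of these groups, 18 stood apart. Chance picks out about 1 in 20 such groups, but the 18 cannot be set against that rate. Some of the genes, such as Col4a3, Col4a4, Col23a1 and Col26a1, were named for calls that rest on 1 library, so that library was likely to stand apart.

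By this test SD library 4 stood apart as the highest of its group in 5 genes: Col3a1 at 1565 CPM (next 458), Col1a2 at 1207 (385), Col4a4 at 81.6 (6.66), Col4a3 at 29.7 (2.31) and Col26a1 at 2.28 (0.267). SZ-A 600 library 6 was the highest in Col4a4 at 88.7 CPM (next 5.39), Col4a3 at 41.6 (2.42) and Col26a1 at 4.89 (0.55). SZ-A 400 library 6 was the highest in Col23a1 at 163 CPM (next 18.1), Col26a1 at 35.8 (0.745) and Col4a3 at 6.59 (1.82). It was the lowest in Col5a3 at 35.3 CPM (next 170.4), and its Col6a1 over Col6a2 ratio of 3.24 was the highest (next 2.13). These 3 libraries hold markers of other tissue.

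HFD library 8 was the lowest of its group in Col1a1 at 145 CPM (next 613), in Col12a1 at 6.9 CPM (next 18.3) and in the Col1a1 over Col1a2 ratio at 1.15 (next 1.64). SZ-A 200 library 9 was the lowest in Col4a1 at 771 CPM (next 1088) and in Col15a1 at 212 CPM (next 351).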

How the results depend on the processing

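Of 131 results on single named genes, 94 were called, and the others kept their side of the threshold by staying uncalled. Of the 131, 131 kept direction and side of the threshold with DESeq2's size factors, 127 with upper-quartile factors, 118 with DESeq2, and 110 and 109 with limma on log2(FPKM + 1) and log2(FPKM + 0.1). Without the 4 libraries it was 112. Of 120 such results in the set fits, 112 kept both with library set as a term, 98 in set 1 (8 changed sign, 14 lost the call), 28 in set 2 (92 lost it) and 43 in set 2 without the 4 libraries (75 lost it, 2 changed sign). Calls among all genes moved with the fit too: 580 at 400 mg/kg/day became 1274 with library set as a term and 11 without the 4 libraries. Counts of called collagens that moved by over 1.5 times were these, and their causes were not tested beyond the libraries removed. Of 17 collagens higher with the diet, 0 were called within library set 2 and 7 within set 2 without the 4 libraries. Of all genes 202 and 1323 were higher in those fits. Of 3 lower, limma on log2(FPKM + 1) called 1, the fit without the 4 libraries 1, and set 2 with or without them 0. Of all genes, limma called 3133 lower, the fit without the 4 libraries 3110, and set 2 146 with them and 772 without. At 200 mg/kg/day (0) set 1 gave 1 lower, and 3 lower without the 4 libraries. Of all genes, set 1 called 60 lower and 504 higher of 20151, and without the 4 libraries 153 and 763 of 19967. At 400 mg/kg/day (4 higher, 0 lower) limma gave 0 with either pseudocount, a filter of 1 CPM in 7 libraries 2, library set as a term 8 (2 higher, 6 lower), and 0 came from the fit without the 4 libraries (with or without the set term), from either set (with or without them) and from fitting only the groups compared. Of all genes at 400 mg/kg/day, limma called 41 or 35 by the pseudocount. Set 1 called 825 (9 without the 4 libraries) and set 2 called 86 (0 without them). At 600 mg/kg/day (17) and for the dose trend (17), set 2 gave 0 with or without the 4 libraries. Of all genes, set 2 called 4 in each, and without the 4 libraries 0 and 2.

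Leaving out 1 library at a time gave 16 to 18 higher and 0 to 3 lower with the diet (0 without SD library 4), 0 to 0 at 200 mg/kg/day, 1 to 12 at 400, 12 to 21 at 600, 13 to 21 for the trend and 0 to 0 for the difference between sets. At 400 mg/kg/day it was 2 without HFD library 1, 2 or 7, 9 without HFD library 8 or SZ-A 400 library 5, 12 without SZ-A 400 library 2 and 1 without SZ-A 400 library 6. Calls among all genes in these single-library fits are not given here, so the counts cannot be set against a share. For the log2 chain ratios the ranges were 0.4 to 0.65 (diet) and -0.64 to -0.46 (600 mg/kg/day) for Col1a1 over Col1a2, 0.1 to 0.33 and -0.34 to -0.17 for Col3a1 over Col1a1, -0.22 to -0.17 and 0.11 to 0.18 for Col4a1 over Col4a2, and -0.18 to -0.11 and 0.23 to 0.26 for Col6a1 over Col6a2.

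Chain ratio differences crossed the threshold as follows, with adjusted values from exact permutation. Col6a1 over Col6a2 with the diet was -0.11 without the 4 libraries (0.0696) and -0.11 with 1 FPKM added (0.052). In set 1 the diet differences were 1.01 for Col1a1 over Col1a2, -0.16 for Col4a1 over Col4a2 and -0.22 for Col6a1 over Col6a2 (0.0544 each), and Col3a1 over Col1a1 at 600 mg/kg/day was -0.5 (0.0317). In set 2 Col1a1 over Col1a2 was 0.35 and -0.53, Col4a1 over Col4a2 -0.24 and 0.11 and Col6a1 over Col6a2 -0.07 and 0.2, with the diet and at 600 mg/kg/day (0.0635 to 0.444).

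The replicate block, a paired fit by replicate number, moved the collagens lower with the diet from 3 to 7. Among all 20218 genes it moved those lower from 2689 to 5112. At 400 mg/kg/day it called 1 collagen higher and 4 lower, and 331 and 282 of all genes. Ratios under the replicate block were 0.56 (0.0714) and -0.54 (0.0547) for Col1a1 over Col1a2, -0.16 (0.0714) and 0.13 (0.0547) for Col4a1 over Col4a2, and -0.15 (0.0714) for Col6a1 over Col6a2 with the diet. Over 79 same-numbered pairs the median correlation of deviations was 0.197, and 48 were over 0.1. Pairs of different number had 0.229 within a set and -0.228 across sets. Some same-numbered pairs also cross the sets, so these values cannot tell whether the numbers pair the libraries.

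Signs turned for a few single genes. Col18a1 was 0.02 at 200 and 600 mg/kg/day, 0.07 and 0.09 at 400 and 0.03 and 0.04 for the trend in set 1, with and without the 4 libraries, and Col12a1 was 0.01 at 200. At 400 mg/kg/day Col26a1 was -0.17 and -0.2 without the 4 libraries and -0.07 and -0.41 in set 1, Col4a6 was -0.06 in set 1, and Itga2 was -0.04 with DESeq2, -0.18 and -0.13 without the 4, -0.03 and -0.19 in set 1, -0.11 in set 2 without them and -0.06 without SZ-A 400 library 6 (-0.06 to 4.3 over the single libraries left out). Col4a3 at 600 was -0.02 in set 2 without the 4 libraries. For the difference of the diet effect between sets, Col18a1 was 0 with limma and -0.22 to -0.02 with 1 library left out, and Col14a1 was 0.39 with the replicate block, 0.31 without the 4 libraries and 0.32 without SD library 4 (-1.32 to 0.32 over the single libraries).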
